A study of Homo sapiens with 12 samples.

Results

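The 10 AP-1 transcription factor genes examined here were FOS, FOSB, FOSL1 and FOSL2 of the FOS family, JUN, JUNB and JUND of the JUN family, ATF3 and BATF3 of the ATF and BATF group, and the small MAF gene MAFF. They were found by matching gene symbols to the Ensembl identifiers of the count table, which holds 63568 identifiers, and all 10 were among the 25249 genes tested. The samples were MDA-MB-231 cells, an established triple negative breast cancer cell line, grown in Matrigel as 3D cultures and measured by bulk RNA-seq in 12 libraries, 2 for each of 6 conditions. C1 was untreated on day 2 and C2 untreated on day 4, and the 4 treated conditions received 0.0005, 0.005, 0.05 or 0.5 μM Paclitaxel on day 2, according to the sample labels, and were taken on day 4. The study also describes imaging cultures that were treated at a later day. All conditions shared the cell line, which carries a GFP reporter in the nucleus, and the gel. Before lysis the gel of each sample was broken up by suction and incubated with enzymes in warm fresh medium to free the cells. RNA levels in the gel culture and a response to this step cannot be told apart, and its part was not tested. Paclitaxel stabilizes microtubules and stops cell division. The comparison asks which AP-1 genes were lower in the treated cells and along the dose, and which were not. That FOSB and ATF3 fall with dose was already known when the members were chosen.

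AP-1 is a family of paired transcription factors of the bZIP class. FOS proteins must pair with a JUN protein to bind DNA, JUN proteins can also pair among themselves, and the pairs bind the TRE, TGACTCA, or the cyclic AMP response element (CRE), TGACGTCA. FOS, FOSB, JUN, JUNB and ATF3 are immediate early genes, transcribed within minutes of a growth factor or stress signal through the MAP kinases, whereas FOSL1 and FOSL2 proteins last longer and FOSL1 is a prominent AP-1 subunit of invasive, mesenchymal breast cancer cells. ATF3, BATF3 and MAFF are known mainly as partners that dampen or redirect transcription, MAFF because it has no activation domain of its own.

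The libraries held 38380629 to 79169121 counts. Levels are given as CPM, that is counts relative to the size of the library, after TMM scaling, and a gene was called changed at an adjusted p-value under 0.05 with edgeR (quasi-likelihood, two-sided, Benjamini-Hochberg correction across all genes tested). The 2 libraries of C1 differed from each other more than those of any other condition, by a median of 0.42 on the log2 scale over 12245 genes against 0.06 to 0.16 elsewhere. Of the markers of the line, VIM, CD44, AXL, MSN, CAV1 and EGFR were each at 237 CPM or more in every library. Their sum was 2985 to 4721 CPM in C1, 3341 to 3843 CPM in C2 and, with increasing dose, 3319 to 3453, 2691 to 2836, 3115 to 3239 and 2468 to 2964 CPM, so that at the 3 higher doses, where members were called, it was below both C2 libraries. Of 6 luminal and receptor markers known to be low in it, ESR1, PGR and CDH1 were under 0.5 CPM, while GATA3 was at 1.58 to 4.44, EPCAM at 4.37 to 6.77 and ERBB2 at 26.6 to 52.4 CPM. The 4 leukocyte markers summed to 0.54 to 0.83 CPM in untreated and 1.22 to 1.75 CPM in treated libraries, and the 3 endothelial markers to 0.42 to 1.51 and 1.96 to 2.94 CPM, with no overlap. The mean of CD14 went from 0.51 CPM in C2 to 1.41 CPM at 0.5 μM and that of KDR from 0.70 to 1.58 CPM, while CD68 went from 0.086 to 0.026 CPM, PTPRC was at most at 0.28 CPM and CD3E was at 0 in 6 libraries. The part of these markers in the results was not tested. Fibroblast markers summed to 8.5 to 18.1 CPM and overlapped. RNA was measured in bulk, so fewer cells that use a gene and less of its RNA per cell cannot be told apart.

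The stretch before the transcription start is shown for the 3 members whose level fell along dose (FOSB, ATF3 and JUND) and for FOS and JUN, the founding members of their families, whose dose slope was not called. Each line gives the 250 bases before the start from RefSeq, 5′ to 3′. Capitals mark matches to the CRE, to a variant CRE (TGACATCA) or to the core of the CRE alone (TGACG), on either strand.
FOSB (GRCh38.p14 chr19:45467746-45467995, plus strand): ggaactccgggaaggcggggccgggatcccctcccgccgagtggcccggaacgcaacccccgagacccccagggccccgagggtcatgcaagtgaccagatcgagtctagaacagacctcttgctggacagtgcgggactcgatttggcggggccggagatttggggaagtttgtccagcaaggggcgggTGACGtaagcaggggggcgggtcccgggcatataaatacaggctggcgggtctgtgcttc
ATF3, start 1 (GRCh38.p14 chr1:212565157-212565406, plus strand): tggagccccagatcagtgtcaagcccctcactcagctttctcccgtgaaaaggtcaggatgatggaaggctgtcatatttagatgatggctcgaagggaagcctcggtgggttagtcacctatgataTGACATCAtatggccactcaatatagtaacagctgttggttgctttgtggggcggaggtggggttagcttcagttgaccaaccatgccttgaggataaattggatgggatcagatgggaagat
JUND (GRCh38.p14 chr19:18281623-18281872, minus strand): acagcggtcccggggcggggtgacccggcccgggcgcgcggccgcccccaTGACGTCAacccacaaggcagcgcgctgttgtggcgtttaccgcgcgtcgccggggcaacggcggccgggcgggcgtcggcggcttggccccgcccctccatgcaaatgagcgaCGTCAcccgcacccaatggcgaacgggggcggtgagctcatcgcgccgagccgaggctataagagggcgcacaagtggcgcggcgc
FOS (GRCh38.p14 chr14:75278578-75278827, plus strand): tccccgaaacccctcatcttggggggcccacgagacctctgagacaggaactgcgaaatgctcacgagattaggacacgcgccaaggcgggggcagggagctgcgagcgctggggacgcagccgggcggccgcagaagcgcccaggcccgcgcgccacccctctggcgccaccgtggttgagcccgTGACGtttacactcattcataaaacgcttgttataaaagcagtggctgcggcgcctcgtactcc
JUN (GRCh38.p14 chr1:58784048-58784297, minus strand): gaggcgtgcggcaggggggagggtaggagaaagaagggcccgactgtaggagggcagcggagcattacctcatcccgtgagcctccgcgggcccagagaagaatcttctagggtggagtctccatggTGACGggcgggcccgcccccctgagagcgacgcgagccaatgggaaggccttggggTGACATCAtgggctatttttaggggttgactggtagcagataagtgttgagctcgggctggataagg

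RefSeq promoter entries, 250 bases before to 50 after a start on GRCh38.p14, were found for 8 of the 10 members, with 2 starts each for ATF3 and MAFF. FOSL1 and BATF3 had no entry. FOS, whose slope was not called, and FOSB, which fell along dose, each had a single match, a CRE core at 64 and 60 bases before the start. JUND held a full CRE at 200 bases before its start and a further CRE core at 86, and the 1st start of MAFF, whose slope was not called, held a CRE at 54. JUN and the 1st start of ATF3 shared the variant CRE, at 67 and 123 bases before the start, and JUN also had a CRE core at 123. FOSL2 held CRE cores at 66 and 201 bases before the start and the only TRE, which began 5 bases after it. JUNB had a CRE core at 137, and no match was found at the 2nd start of ATF3 or of MAFF. The CArG box, the element of serum response factor, had no match in any of the 10 windows. Elements further from the start than these windows reach were not searched for. Among 35116 promoters of the same length a CRE core was found in 24.553%, a TRE in 4.949%, a variant CRE in 2.614%, a CRE in 1.848% and a CArG box in 1.293%. The full CRE and the CRE core overlap by construction, so a gene with a CRE counts for both. Matches of these kinds were thus present in members that fell and in members that were not called.

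**Figure D1:**
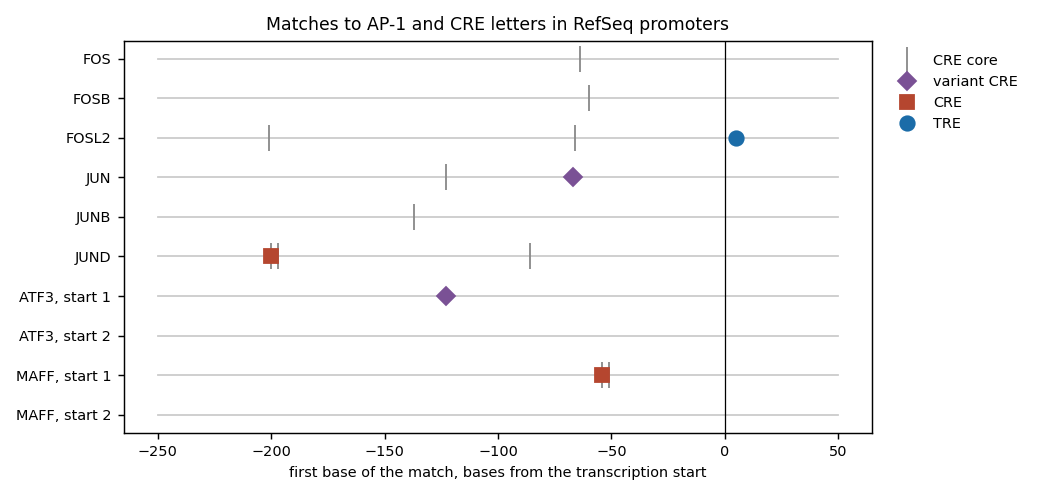
Positions of motif matches in the 10 RefSeq promoter windows of 8 AP-1 genes, in bases from the transcription start (vertical line). Markers stand for the CRE core, variant CRE, CRE and TRE. Matches lay mostly between 51 and 201 bases before the start, and the TRE of FOSL2 lay at 5 bases after it.

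Among the FOS family, FOSB changed most. It lies on chromosome 19 (GRCh37, 45971253 to 45978437, plus strand) and has 4 exons. FOSB stood at 443 and 191 CPM in the C1 libraries and at 549 and 350 CPM in C2. With 0.0005 μM Paclitaxel it stood at 200 and 131 CPM, with 0.005 μM at 79.2 and 75.4 CPM, with 0.05 μM at 82.1 and 111 CPM, and with 0.5 μM at 46.5 and 39.3 CPM. All 8 treated libraries were below both C2 libraries, and the 0.5 μM libraries were the lowest of the 12. Against C2 the log2 fold change was -1.44 (SE 0.35, adjusted p = 0.0524) at the lowest dose, which missed the threshold. It was -2.54 (SE 0.36, adjusted p = 0.00311), -2.22 (SE 0.36, adjusted p = 0.00401) and -3.39 (SE 0.37, adjusted p = 0.000632) at the higher doses, so that at 0.5 μM the level was 90.5% below C2 (95% interval of the ratio, 0.0542 to 0.168). Ranked by the size of the fall among the 25249 genes, FOSB was at positions 278, 1, 25 and 2 with increasing dose. At 0.005 and 0.5 μM its 95% interval lay wholly below those of the other 9 members. At 0.05 μM it overlapped that of ATF3 alone.

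FOS, the gene that gave the family its name, did not follow the order of the doses. It lies on chromosome 14 (GRCh37, 75745529 to 75748933, plus strand). It was at 73.3 and 60.3 CPM in C1, 99.8 and 86.4 CPM in C2, 83.3 and 74.6 CPM at 0.0005 μM, and 47.7 and 48.0 CPM at 0.005 μM. At 0.05 μM it was back at 87.2 and 89.0 CPM, within the range of C2, and at 0.5 μM it was at 52.4 and 42.5 CPM. The fall against C2 was called at 0.005 μM (log2 fold change -0.96, SE 0.15, adjusted p = 0.00662) and at 0.5 μM (-0.97, SE 0.15, adjusted p = 0.00492), and was kept under 17 and 18 of 20 alternatives. It was lost at both doses without C2 replicate 1 (adjusted p = 0.106 and 0.0759), at 0.005 μM without either replicate of that dose and at 0.5 μM without its replicate 2. At 0.05 μM the difference was -0.08 (95% interval -0.41 to 0.25). The steps between neighbouring doses were compared only after these levels had been seen. As in FOS, both 0.05 μM libraries of FOSB, FOSL1, FOSL2, JUN, JUNB, ATF3 and MAFF were above those at 0.005 and 0.5 μM. JUND and BATF3 did not share this pattern. FOS was 0.88 higher on the log2 scale at 0.05 than at 0.005 μM (SE 0.15, adjusted p = 0.304) and 0.89 lower at 0.5 than at 0.05 μM (log2 fold change -0.89, SE 0.15, adjusted p = 0.706). Neither step was called, although the pairs of libraries did not overlap, and 0 of 25249 genes were called at either step in either direction, with 1569 and 649 at an unadjusted p under 0.05. DESeq2 called 13 genes lower and 19 higher at the first step and 4 lower at the other, FOS among them at both. Without the day 2 libraries in the fit the adjusted p-values of FOS were 0.00296 and 0.0235, with 26 of 25109 genes called lower and 80 higher at the first and 7 lower at the other, and each step was called under 5 of 19 alternatives.

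FOSL1 and FOSL2 were not called at any dose. FOSL1, on chromosome 11, stood at 309 and 131 CPM in C1 and at 167 and 146 CPM in C2. Its treated libraries were at 159 and 148, 129 and 135, 193 and 198, and 170 and 142 CPM in order of increasing dose. At 0.5 μM the difference from C2 was -0.01 on the log2 scale (95% interval -0.63 to 0.61), which leaves room for a ratio between 0.648 and 1.53. Only at 0.005 μM were both libraries below C2, and at 0.05 μM both were above it. FOSL2, on chromosome 2, was at 493 and 237 CPM in C1 and 376 and 281 CPM in C2, with all treated libraries between 206 and 309 CPM. Its log2 differences from C2 were -0.53, -0.38, -0.20 and -0.40 in the same order (adjusted p = 0.342, 0.479, 0.731 and 0.4). The wide spread of FOSL1 and FOSL2 came with the C1 libraries, in which replicate 1 was above replicate 2 for every member but ATF3 and BATF3.

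**Figure D2:**
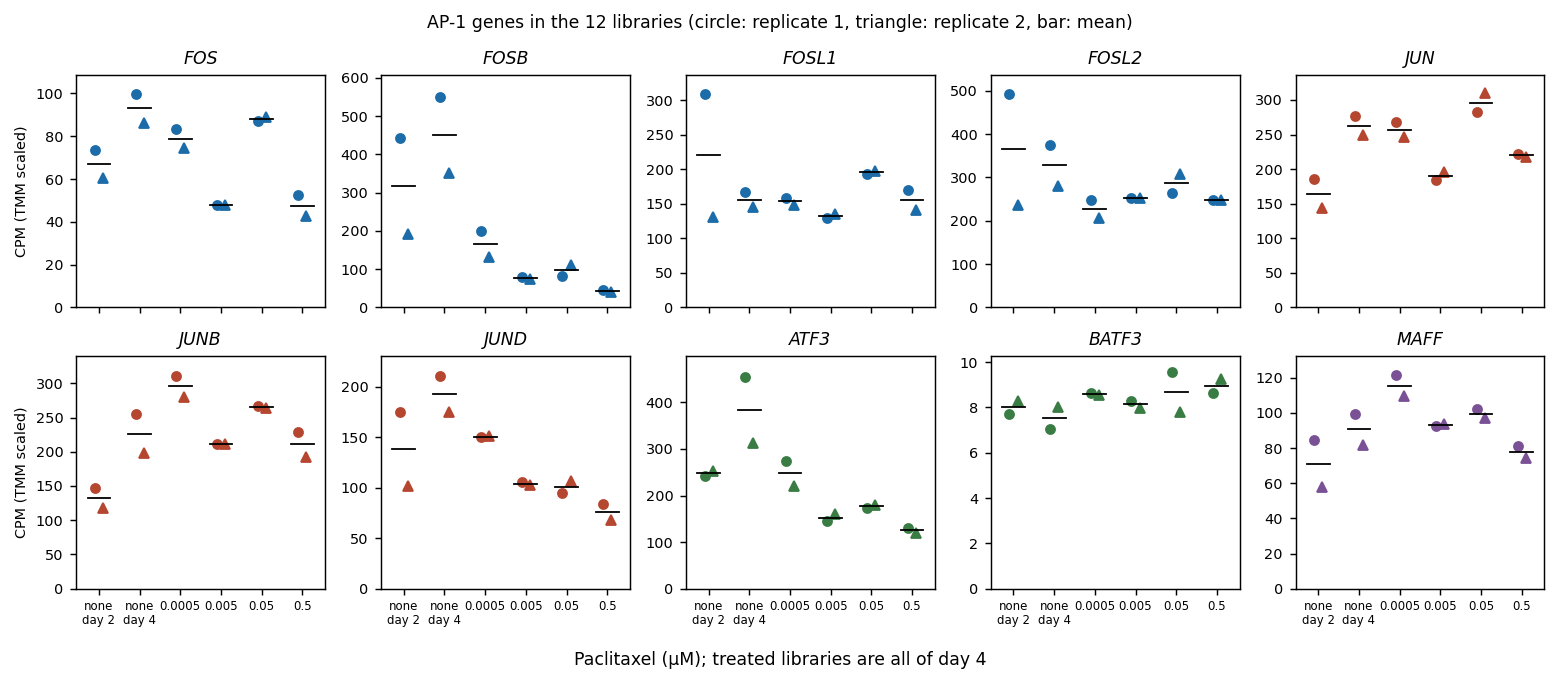
Levels of the 10 AP-1 genes in the 12 libraries, as TMM scaled CPM on linear axes that start at 0. Circles are replicate 1, triangles replicate 2 and bars the mean of 2 libraries. FOSB goes from 549 and 350 CPM in untreated cells of day 4 to 46.5 and 39.3 CPM at 0.5 μM, while FOSL1, JUNB and BATF3 at that dose overlap or exceed the untreated libraries of day 4.

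Of the JUN family, JUND was lower and JUN and JUNB were not called. JUND, the member usually described as constitutively expressed, lies on chromosome 19 (GRCh37, 18390504 to 18392432, minus strand) and has a single exon. It was at 175 and 101 CPM in C1, 210 and 175 CPM in C2, 150 and 151 CPM at 0.0005 μM, and 106 and 103 CPM at 0.005 μM. It was at 94.9 and 106 CPM at 0.05 μM and at 83.4 and 68.1 CPM at 0.5 μM. All treated libraries were below both C2 libraries. The log2 fold changes against C2 were -0.36 (adjusted p = 0.427), -0.89 (SE 0.22, adjusted p = 0.0473), -0.94 (SE 0.22, adjusted p = 0.0215) and -1.35 (SE 0.22, adjusted p = 0.00556) with increasing dose. The call at 0.005 μM was held under 9 of 20 alternatives, and those at 0.05 and 0.5 μM under 16 and 18.

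JUN, on chromosome 1, and JUNB, on chromosome 19, encode the inducible partners of the FOS proteins. JUN was at 186 and 143 CPM in C1, 277 and 249 CPM in C2, 268 and 247 CPM at 0.0005 μM, and 184 and 196 CPM at 0.005 μM. It was at 282 and 309 CPM at 0.05 μM and at 222 and 218 CPM at 0.5 μM. Like FOS and most other members, JUN was lower at 0.005 and 0.5 μM than at 0.05 μM in both libraries. No difference of JUN from C2 was called (log2 -0.47 at 0.005 μM, adjusted p = 0.125, and -0.26 at 0.5 μM, adjusted p = 0.339). JUNB was at 147 and 117 CPM in C1, 256 and 198 CPM in C2, and 311 and 280 CPM at 0.0005 μM. At the 3 higher doses it was between 193 and 267 CPM. Its log2 differences from C2 were 0.38 (adjusted p = 0.272), -0.10, 0.23 and -0.10, and at 0.5 μM the 95% interval was -0.47 to 0.26. JUNB shares 259 exonic bases with HOOK2 on the opposite strand, and the use of strand in the counting was not given in the sources used here, so reads from that stretch cannot be assigned to either gene.

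ATF3 was the remaining member called lower against C2. It is a stress-inducible gene on chromosome 1 (GRCh37, 212738676 to 212794119, plus strand), with BATF3 next to it on the opposite strand (212859759 to 212873182). ATF3 was at 243 and 253 CPM in C1, 455 and 312 CPM in C2, and 274 and 221 CPM at 0.0005 μM. It was at 145 and 160, 174 and 180, and 130 and 120 CPM at the 3 higher doses. Every treated library was below both C2 libraries, and those at 0.005 μM and above were also below both C1 libraries. The log2 fold changes were -0.63 (SE 0.18, adjusted p = 0.0972), -1.33 (SE 0.18, adjusted p = 0.00256), -1.11 (SE 0.18, adjusted p = 0.00439) and -1.62 (SE 0.18, adjusted p = 0.000753), the last a level 67.4% below C2. The calls at 0.005 and 0.05 μM were each kept under 19 of 20 alternatives and that at 0.5 μM under all 20; the first was lost without replicate 1 of 0.005 μM (adjusted p = 0.0517) and the second without C2 replicate 1 (adjusted p = 0.0605). BATF3, a partner of JUN proteins best known from dendritic cells, was at 7.04 to 9.56 CPM in all 12 libraries, and its largest difference from C2 was 0.25 on the log2 scale, at 0.5 μM (95% interval -0.09 to 0.58). The 95% intervals of these neighbours did not overlap at any of the 4 doses.

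MAFF, on chromosome 22, was at 84.4 and 57.6 CPM in C1, 99.4 and 81.9 CPM in C2, and 122 and 109 CPM at 0.0005 μM. It was at 92.3 and 93.5, 102 and 97.0, and 81.4 and 74.6 CPM at the higher doses. No difference from C2 was called, and the log2 values ran from 0.35 at 0.0005 μM (adjusted p = 0.336) to -0.22 at 0.5 μM (adjusted p = 0.494). Within the treated libraries both at 0.5 μM were below all others. MAFF shares 326 exonic bases with PLA2G6 on the opposite strand.

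**Figure D3:**
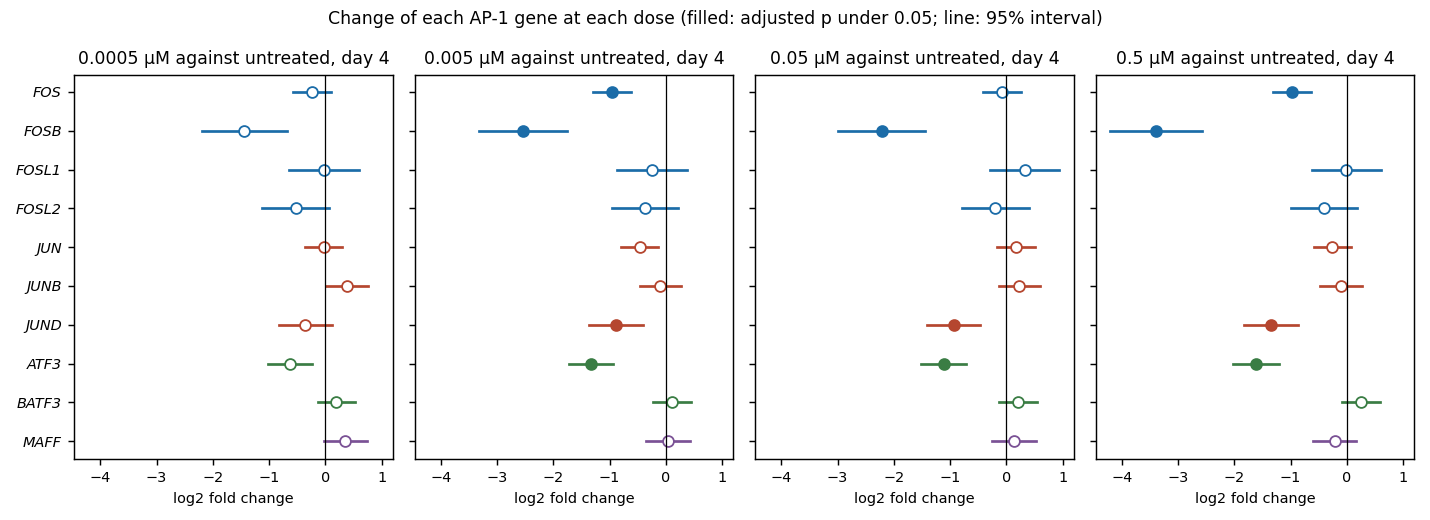
Log2 fold change of each AP-1 gene at each dose against the untreated libraries of day 4, with 95% intervals as lines and filled points at an adjusted p under 0.05. No point is filled at 0.0005 μM, FOS, FOSB, JUND and ATF3 are filled at 0.005 and 0.5 μM, and FOSB, JUND and ATF3 at 0.05 μM.

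Counted over the 10 members, 4 were lower at 0.005 μM (FOS, FOSB, JUND and ATF3), 3 at 0.05 μM (FOSB, JUND and ATF3) and 4 at 0.5 μM (FOS, FOSB, JUND and ATF3), and none was called higher at these doses by edgeR, by DESeq2 or at an unadjusted p under 0.05. These counts include FOSB and ATF3, which were known to fall with dose when the members were chosen. Over all 25249 genes, 0.776%, 3.23% and 1.96% were called lower at these doses and 2.5%, 5.09% and 4.36% higher. Among genes of at least 8 CPM, a level near that of BATF3, the shares were 1.54%, 5.9% and 3.5%. At 0.0005 μM edgeR called 0 members, with 3 at an unadjusted p under 0.05 (FOSB and ATF3 lower, JUNB higher) beside 4280 of 25249 genes, while DESeq2 called 2, FOSB and ATF3; over all genes 0.479% were called lower and 1.87% higher, and 0.723% of those of at least 8 CPM were called lower. The median log2 difference of the members was -0.14, -0.42, 0.03 and -0.33 with increasing dose, beside -0.01, 0.04, -0.01 and 0.04 for all genes tested and -0.04, -0.12, -0.11 and -0.11 for those of at least 8 CPM. The 4 comparisons share the C2 libraries. In C2, replicate 1 was above replicate 2 for every member but BATF3. Without C2 replicate 1 the members called at 0.005, 0.05 and 0.5 μM numbered 2, 1 and 2. At 0.005 μM they numbered 1 without replicate 1 of that dose and 2 without replicate 2, and at 0.5 μM 2 without replicate 2 of that dose. At 0.0005 μM they numbered 3 without either C1 replicate. Without both C1 libraries they numbered 3, 5, 3 and 4 with increasing dose, FOSL2 joining at 0.0005 μM and JUN at 0.005 μM, beside 1145, 1559, 2300 and 2711 of 25109 genes called lower. FOSB was called at 0.005, 0.05 and 0.5 μM under all 20 alternatives, and at 0.0005 μM under 7 of 20.

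Whether levels moved along the dose itself was tested as a slope per 10-fold dose in the 8 treated libraries alone. FOSB fell by 0.55 per 10-fold dose on the log2 scale (SE 0.12, adjusted p = 0.0399), JUND by 0.30 (SE 0.04, adjusted p = 0.00185) and ATF3 by 0.28 (SE 0.06, adjusted p = 0.0218). The slope of MAFF was -0.16 (SE 0.04, adjusted p = 0.0557), that of FOS -0.12 (SE 0.12, adjusted p = 0.651) and that of JUNB -0.12 (SE 0.06, adjusted p = 0.288). FOSL1, FOSL2, BATF3 and JUN had slopes of 0.07, 0.06, 0.02 and -0.004, and their 95% intervals ran at most from -0.15 to 0.19. Of all genes 2.04% were called lower and 1.02% higher along dose, and of those of at least 8 CPM 3.32% were called lower. JUND was called under all 14 alternatives. FOSB and ATF3 lost their calls without either replicate of 0.0005 μM or either of 0.5 μM, which left JUND as the single member called, and FOSB also lost its call with replicate number as a block (adjusted p = 0.0649). The slope of MAFF was called under 5 of 14 alternatives, DESeq2 among them. FOS was called lower than C2 at 0.005 and 0.5 μM but its slope was not called, and the 95% interval of that slope (-0.40 to 0.15) overlapped that of FOSB (-0.81 to -0.29).

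**Figure D4:**
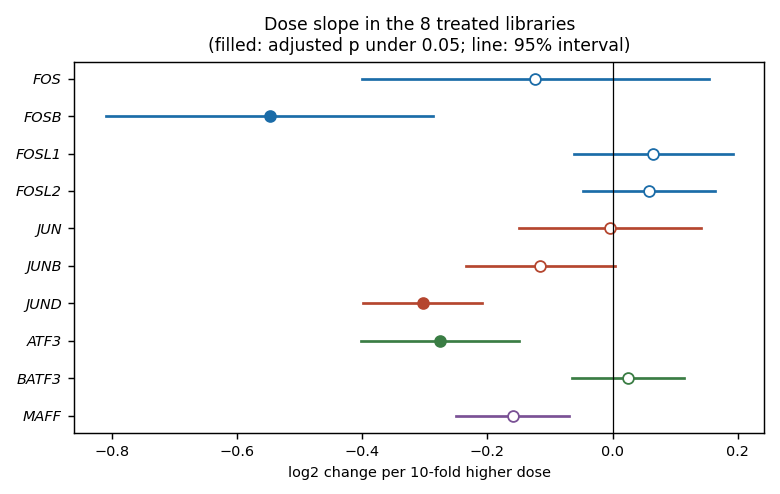
Slope of each AP-1 gene per 10-fold higher dose of Paclitaxel in the 8 treated libraries, on the log2 scale, with 95% intervals as lines and filled points at an adjusted p under 0.05. FOSB (-0.55), JUND (-0.30) and ATF3 (-0.28) are filled, and FOSL1, FOSL2, JUN and BATF3 lie at 0.07 or closer to 0.

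Time in culture was compared within the untreated cells. No member was called between day 4 and day 2 by edgeR (0 of 10), with 5 at an unadjusted p under 0.05 beside 2524 of 25249 genes, and DESeq2 called 2, JUN and JUNB. Over all genes 0.321% were called higher and 0.00396% lower (0.00893% of those of at least 8 CPM). The log2 differences were 0.78 for JUNB (adjusted p = 0.107), 0.68 for JUN (adjusted p = 0.132), 0.63 for ATF3, 0.48 for FOS and 0.48 for JUND, and for these 5 genes both C2 libraries were above both C1 libraries. The number called depended on C1, at 6, all higher, without C1 replicate 1 (2682 of 26785 genes called) and 4 without C1 replicate 2 (1884 of 26797). Of these 4, JUN, JUNB and ATF3 were higher and FOSL1 was lower (log2 fold change -0.95, adjusted p = 0.000639), whereas FOSL1 was at 0.26 without C1 replicate 1 (adjusted p = 0.328). Each of these fits has a single C1 library, which is assumed to vary like the other conditions. For FOS, FOSB, JUND and ATF3 both libraries at 0.5 μM were below not just those of day 4 but also both of day 2, the day on which the labels say the drug was given. JUN and JUNB at 0.5 μM were above both day 2 libraries.

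Set against the 4 untreated libraries of both days together, the 8 treated libraries had 4 members called lower, FOSB (0.249 times the untreated level, adjusted p = 0.000455), ATF3 (log2 fold change -0.85, adjusted p = 0.00566), JUND (-0.62, adjusted p = 0.0298) and FOSL2 (-0.45, adjusted p = 0.0412). In this comparison 11.3% of all genes, and 21.1% of those of at least 8 CPM, were called lower, and 13.1% of all genes higher. FOSB was at position 4 among the falls of all genes. The calls of FOSB and ATF3 were kept under all 19 alternatives and that of JUND under 14, with adjusted p = 0.125 without C2 replicate 1 and 0.0749 without C1 replicate 1. The call of FOSL2 was kept under 8 of 19, and without C1 replicate 1, its highest library, the log2 difference was -0.23 (adjusted p = 0.265). JUNB was 0.45 higher (adjusted p = 0.0708). JUNB was called higher without C2 replicate 1 (0.67, adjusted p = 0.0132). The members called lower numbered 2 without C1 replicate 1, without C2 replicate 1 or without replicate 1 of 0.5 μM. For each of the 10 genes the lowest and highest libraries of the groups overlapped.

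Levels were compared between members per kilobase of exon, so that long and short genes are on one scale. In C2 the order was JUNB at 124 CPM per kb, JUND at 99.9, ATF3 at 95.9, FOSL1 at 82.9, FOSB at 81.0, JUN at 72.5, FOSL2 at 45.8, FOS at 29.2, MAFF at 16.1 and BATF3 at 2.93. The libraries of each neighbouring pair from JUNB down to JUN overlapped. At 0.5 μM the order was JUNB at 115, FOSL1 at 82.5, JUN at 60.6, JUND at 39.3, FOSL2 at 34.6, ATF3 at 31.3, FOS at 14.9, MAFF at 13.9, FOSB at 7.73 and BATF3 at 3.47 CPM per kb. There only FOS and MAFF overlapped. FOSB thus went from position 5 to position 9, and JUNB was first and BATF3 last in both conditions. With canonical transcript lengths ATF3 was first in C2 at 198 CPM per kb, JUNB was at position 2 and FOSB at position 3, and at 0.5 μM JUNB was first, FOSB at position 9 and BATF3 last.

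Within the FOS family the make-up shifted from FOSB to FOSL1. FOSB held 33.5% ± 4.18 (SD, n = 2) of the summed CPM per kb of the family in C2 and 5.52% ± 0.115 at 0.5 μM. FOSL1 held 35.0% ± 3.34 in C2 and 58.9% ± 1.85 at 0.5 μM, with 48.7%, 52.1% and 55.0% at the doses between. FOSL2 held 19.2% and 24.9% and FOS 12.3% and 10.6% in C2 and at 0.5 μM. The level of FOSL1 itself did not move by more than its error, so its larger share came with the smaller sum of the family, 239 ± 45.6 CPM per kb in C2 and 140 ± 13.5 at 0.5 μM. In C1, FOSL1 held 46.7% and FOSB 22.9%. In the JUN family JUNB went from 41.7% ± 1.85 in C2 to 53.5% ± 1.42 at 0.5 μM and JUND from 33.8% ± 0.314 to 18.2% ± 0.871, while JUN was at 24.6% and 28.3%. An exact permutation test of 2 libraries against 2 cannot go below p = 0.333, and no model was fitted to these shares, so they are given as a description. With canonical transcript lengths in place of all exons, FOSB held 38.7% and 6.99% and FOSL1 30.5% and 56.3% in C2 and at 0.5 μM.

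**Figure D5:**
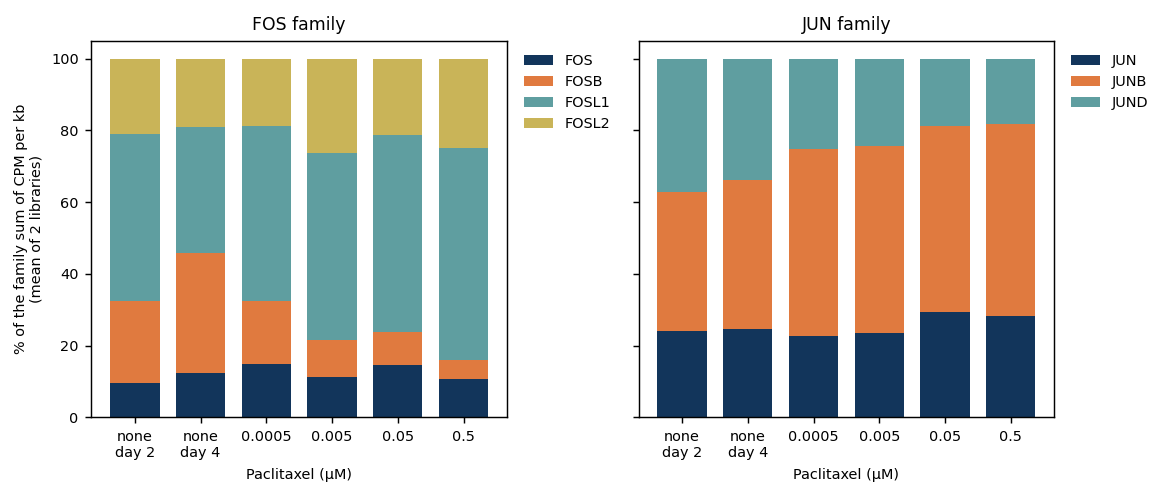
Make-up of the FOS family (left) and JUN family (right) in each condition, as the percent of the family's summed CPM per kb of exon, mean of 2 libraries. FOSB goes from 33.5% in untreated cells of day 4 to 5.52% at 0.5 μM and FOSL1 from 35.0% to 58.9%, and JUND goes from 33.8% to 18.2%.

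Over the 12 libraries the log2 CPM of FOSB went with that of ATF3 (Pearson r = 0.94, n = 12) and JUND (r = 0.93, n = 12), and JUNB went with MAFF (r = 0.90, n = 12). These are descriptions, since libraries of one condition share their dose and day. Of 11081 genes with a symbol and a mean of at least 5 CPM, members left out, those most like FOSB by this measure were OSR2 (r = 0.985), MYADM (r = 0.978) and KLF4 (r = 0.977), all over 12 libraries. KLF4, an immediate early zinc finger factor, was at 154 CPM in C2 and 54.5 CPM at 0.5 μM. The genes most like FOSL1 were SF3B4 (r = 0.992), ADISSP (r = 0.990) and ABCF2 (r = 0.985). Their log2 differences from C2 at 0.5 μM were -0.07, 0.002 and -0.02. Their means in C1 were 69.2, 39.4 and 64.1 CPM, against 51.5, 28.6 and 53.4 CPM in C2. FOSL1 itself stood at 309 and 131 CPM in the C1 libraries. How far these correlations rest on the C1 libraries was not tested.

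The other genes of the pathway came from lists compiled by hand, and their counts moved with the libraries used, as did those of all genes. At 0.5 μM 1.96% of all genes were called lower and 4.36% higher. Without the day 2 libraries these were 2711 and 2322 of 25109 genes, without C2 replicate 1 they were 23 and 106 of 26880, and without replicate 1 or 2 of 0.5 μM they were 63 and 417 of 26811 or 20 and 239 of 26449. Of 24 kinases and factors upstream of AP-1 genes, 2 were lower at 0.5 μM, the p38 kinase activator MAP2K6 (log2 fold change -1.003, adjusted p = 0.0237) and ELK3 (-0.76, adjusted p = 0.0402), a partner of serum response factor, and none was called higher. At unadjusted p under 0.05, 9 were lower and 1 higher, beside 5793 of 25249 genes in either direction. DESeq2 called 4 lower, 9 were called lower without the day 2 libraries or either of them, 0 without either C2 replicate or either replicate of 0.5 μM, and 1 without any other library. ELK3 went from 213 ± 24.7 CPM in C2 to 125 ± 13.3 CPM at 0.5 μM, and MAP2K6 from 3.74 ± 0.525 to 1.86 ± 0.341 CPM. The median of the list was -0.30, against 0.04 for all genes and -0.11 for those of at least 8 CPM.

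Of 26 other immediate early genes tested, 9 were lower and 2 higher at 0.5 μM, with a median of -0.53. Without the day 2 libraries or either of them these were 16 and 4, but without C2 replicate 1 they were 1 and 1, and without replicate 1 or 2 of 0.5 μM they were 2 and 1 or 1 and 2. The nuclear receptor genes NR4A1, NR4A2 and NR4A3 were lower, with log2 fold changes of -2.30 (SE 0.41, adjusted p = 0.00853), -2.17 (SE 0.39, adjusted p = 0.00904) and -2.40 (SE 0.43, adjusted p = 0.00843). NR4A1 went from 131 ± 52.6 CPM in C2 to 34.9 ± 6.07 at 0.0005 μM and 26.7 ± 2.00 at 0.5 μM. Unlike FOSB it was called at the lowest dose, and its slope along dose was -0.10 (adjusted p = 0.392). EGR1 and ARC, which like FOS are induced through serum response factor, were higher at 0.5 μM (1.34, SE 0.25, adjusted p = 0.00986, and 2.06, SE 0.21, adjusted p = 0.000353). EGR1 was at 119 ± 9.06 CPM in C2, 234 ± 11.3, 199 ± 5.85 and 489 ± 20.4 CPM at the lower doses and 301 ± 32.3 CPM at 0.5 μM. Like those of FOS, JUN and most other AP-1 members, its mean levels were higher at 0.05 μM than at the doses on either side. Immediate early genes therefore moved in both directions in the same libraries.

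Of 28 genes known as AP-1 targets, 10 were higher at the lowest dose, 9 at the next, 6 at 0.05 μM and 6 at the highest, with list medians of 0.47, 0.03, 0.07 and -0.19. Over all genes 1.87%, 2.5%, 5.09% and 4.36% were called higher. At 0.5 μM 7 were higher and 7 lower without the day 2 libraries or either of them, 2 and 0 without C2 replicate 1, 3 and 0 without either replicate of 0.5 μM or of 0.005 μM, and 3 and 1 without either replicate of 0.0005 μM. At the lower doses leaving out 1 library gave 7 to 14, 5 to 12 and 3 to 9 higher, with the lowest numbers without C2 replicate 1, and for 0.0005 and 0.005 μM also without replicate 2 of that dose. Called lower were HBEGF (log2 fold change -0.75, adjusted p = 0.047), a growth factor, and CLDN1 (-0.65, adjusted p = 0.0286), a tight junction gene, both at 0.5 μM. Along dose 12 of the 28 fell and 1, HMOX1, rose, beside 2.04% and 1.02% of all genes. The collagenase gene MMP13 was at 2.46 ± 0.582 CPM in C2, 26.4 ± 0.38 CPM at 0.0005 μM and 5.99 ± 0.089 CPM at 0.5 μM (1.29 at 0.5 μM, adjusted p = 0.00274). MMP3 was at 0.947 ± 0.274, 17.2 ± 2.10 and 3.44 ± 0.161 CPM in the same conditions (1.87 at 0.5 μM, adjusted p = 0.00106). MMP1, chosen after its values were seen, was at 31.6 ± 12.6, 295 ± 14 and 69.9 ± 0.235 CPM. These 3 genes were thus highest at the lowest dose and fell along dose while staying above C2. HMOX1, which degrades heme, was at 10.2 ± 0.415 CPM in C2 and 56.1 ± 6.05 CPM at 0.5 μM (2.45, SE 0.16, adjusted p = 1.48e-05).

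Of 22 other bZIP genes tested, 2 were called at each dose, both higher, DDIT3 and BATF2, the latter named after its values were seen and under 1.3 CPM in every condition. The median of this list at 0.5 μM was -0.15, and at that dose 5 were lower and 2 higher without the day 2 libraries or either of them, while 0 were called without C2 replicate 1, and 1, higher, without any other library, with DESeq2, with RLE normalization or with the replicate block. Without C2 replicate 1 the number was also 0 at 0.0005 and 0.005 μM, as it was without replicate 2 of 0.0005 μM at that dose and without either replicate of 0.005 μM at that one. DDIT3, the stress factor CHOP, went from 12.2 ± 3.81 CPM in C2 to 39.6 ± 2.14 CPM at 0.5 μM (log2 fold change 1.70, SE 0.26, adjusted p = 0.00412). It is a stress gene like ATF3, but the pair were called in opposite directions at the 3 higher doses. Of 14 heat shock genes, 3, 5 and 4 were lower at 0.005, 0.05 and 0.5 μM and 4 fell along dose, with a median of -0.20 at 0.5 μM. The all-gene shares called lower were 0.776%, 3.23% and 1.96% at these doses and 2.04% along dose. At 0.005 μM 0 were lower without either replicate of C2, of 0.0005 μM or of 0.005 μM, and at 0.05 μM 2 without replicate 2 of that dose and 3 without its replicate 1 or C2 replicate 1, while at 0.5 μM and along dose at least 4 were lower without each library in turn. HSPA6, a strictly inducible HSP70 gene, went from 6.19 ± 0.902 CPM in C2 to 1.17 ± 0.0388 CPM at 0.5 μM (-2.40, SE 0.21, adjusted p = 0.000145). HSPA1A and HSPA1B, a near-identical pair whose reads may not be told apart, were also lower (-1.76, adjusted p = 0.0031, and -1.90, adjusted p = 0.00126).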

How the data were processed

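RNA was sequenced from MDA-MB-231 cells in Matrigel, in 12 samples. Per the submitters' notes and the methods of the study, the authors trimmed reads (Trimmomatic 0.39), checked them (FastQC 0.11.9), aligned them to GRCh37 (STAR 2.7.5) and counted uniquely aligned reads in exons. The deposited values are whole-number counts per Ensembl gene, neither normalized nor pooled, and the file of each sample was identical to its column of the series table in 12 of 12 cases. The strand setting was not given in the sources used here.

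Analyses used edgeR 4.0.16 in R 4.3.3, and DESeq2 1.42.0 as an alternative. Genes were kept by filterByExpr over the 6 conditions (25249 of 63568), TMM scaling followed on the genes kept, and quasi-likelihood fits were robust and two-sided. Each dose was compared with C2, and C2 with C1, in 1 model of 12 libraries (6 residual degrees of freedom); the slope on log10 dose used 8 libraries, and treated against untreated a fit of its own. The biological coefficient of variation was 15.6% in the 1st model. Each standard error was the size of the log2 fold change over the square root of F. Log2 CPM used a prior count of 2. Lengths and positions came from GENCODE on GRCh37; 55665 identifiers had a symbol. Procedures were tested on simulated counts.

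The members, lists and tests were chosen with earlier results of these data known. Named were all members; of each list, up to 3 genes per direction with the largest change at 0.5 μM among those called, with a mean of at least 1 CPM; and the 3 genes of at least 5 CPM whose levels correlated best with FOSB and with FOSL1. A few others are marked as chosen after their values were seen. The study calls its 2 samples a condition biological replicates, but the labels do not name separate cultures, so p-values measure the spread between these samples. Alternatives were DESeq2, RLE normalization, other filters, no robust estimation, a block for the replicate number, only the 4 samples compared, leaving out each sample, and, chosen after the data were seen, leaving out both day 2 samples.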

Additional observations from a re-analysis of the deposited data

How the results depend on the processing

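The precision rests on 2 libraries a condition, with C1 replicate 2 the shallowest at 38380629 counts. The shared estimate of spread took in the wide gap between the C1 libraries, and without both of them 2576, 3187, 4817 and 5033 genes were called at the 4 doses, against 592, 827, 2100 and 1596 with them. Leaving out 1 library moved these counts to between 144 and 2552, 85 and 3316, 321 and 4843, and 129 and 5046, the lowest each without C2 replicate 1. The count of the day comparison, 82, went from 47 to 2682, and that of the slope, 773, from 124 up. DESeq2 called 1173, 1362, 271 and 1696 genes at 0.0005 μM, at 0.005 μM, between the days and along dose; with no filter beyond 1 count these were 1480, 1909, 390 and 1462, and 2807 at 0.5 μM. With only the 4 libraries compared they were 2624 and 2592 at the 2 lowest doses and 2578 at 0.5 μM, but 0 of 20926 between the days, with 599 at an unadjusted p under 0.05. Treated against untreated called 6155 genes, and 3397 without the day 2 libraries. The share of calls that were lower rose with DESeq2 from 495 of 1596 to 1080 of 2317 at 0.5 μM.

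Members called at 0.0005 μM numbered 2 with DESeq2, 2 with no filter beyond 1 count, 3 with only the 4 libraries compared and 3 without the day 2 libraries, which were left out after seeing the data. For the day comparison they numbered 2 with DESeq2 and 2 with no filter beyond 1 count. Leaving out 1 library gave 0 to 3 members at 0.0005 μM, 1 to 5 at 0.005 μM, 1 to 3 at 0.05 μM, 2 to 4 at 0.5 μM, 0 to 6 between the days, 1 to 4 along dose and 2 to 4 for treated against untreated. The cause was not tested beyond the smaller number of samples in these fits.

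The correlation of deviations by replicate number between conditions ran from -0.60 to 0.68 and passed 0.1 in 8 of 15 pairs. It was 0.68 between C1 and C2 and 0.62 between C2 and 0.5 μM, but -0.60 between 0.0005 and 0.05 μM. These values do not settle whether replicate numbers pair the libraries. With the replicate block 1 member was called at 0.0005 μM (FOSB, adjusted p = 0.0197), and FOSB lost its call along dose, where 420 genes were called.

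Directions turned for some members that were not called with all libraries. FOSL1 between the days, at -0.50 with all libraries, was called lower without C1 replicate 2 and turned without C1 replicate 1. FOSL1 at 0.5 μM was 0.013 with a mean count of at least 10 and 0.0093 with only the 4 libraries compared. Without the day 2 libraries, treated against untreated was 0.037 for FOSL1 and -0.12 for JUN. Leaving out 1 library, FOSL1 ran from -0.13 to 0.076 at 0.0005 μM, -0.17 to 0.11 at 0.5 μM, -0.95 to 0.26 between the days and -0.35 to 0.11 for treated against untreated. JUN ran from -0.12 to 0.047 at 0.0005 μM and -0.034 to 0.034 along dose, and JUNB from -0.29 to 0.094 at 0.005 μM and -0.29 to 0.091 at 0.5 μM. FOS and FOSL2 ran from -0.19 to 0.026 and -0.40 to 0.027 at 0.05 μM, MAFF from -0.11 to 0.18 at 0.005 μM and -0.0080 to 0.28 at 0.05 μM, and FOSL2 from -0.56 to 0.47 between the days.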
